A study of Mus musculus with 2 samples.

Results

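A set of 10 genes of prostaglandin and leukotriene synthesis and reception were followed through immune cells sorted from mouse melanomas: Ptgs1, Ptgs2, Ptges, Ptger2, Ptger4, Ptgir, Alox5, Alox5ap, Lta4h and Ltc4s. They were chosen by name, and all 10 were found among the 55450 genes of the count tables. The KO group was Lyz2-Cre-Kcnj2f/f mice, in which Cre driven by the myeloid gene Lyz2 acts on a floxed Kcnj2, the gene of the potassium channel Kir2.1. The WT group was Kcnj2f/f mice, so both groups carried the floxed alleles. Both received B16F10 melanoma cells under the skin, and CD45+ cells were sorted from the tumours at day 10. Each genotype gave 1 library, made from the pooled tumours of 3 mice, so no value below has a replicate check and no test between genotypes was possible. The mice's age was not given in the labels.

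The libraries were droplet libraries in which each captured RNA molecule is counted through a unique molecular identifier (UMI). The KO library held 57047535 UMIs in 6356 cell barcodes and the WT library 55219440 UMIs in 9677. After removal of barcodes above 15% mitochondrial UMIs or with under 200 genes, 5687 KO cells with a median of 8021 UMIs and 8936 WT cells with a median of 4398.5 UMIs were described. Cells were clustered without the 10 genes or their pathway, and clusters were called "-like" after fixed marker lists. Levels are UMIs of a gene per 1000000 UMIs of its class (CPM) with exact Poisson 95% intervals, shares of cells have exact Clopper-Pearson intervals in the result tables, and ratios are log2 KO over WT with exact conditional intervals. All such intervals cover counting error only. Levels of different genes were not compared, since UMIs carry no length scale here. Both libraries held 63 cell barcodes in common, and melanoma-like cells carried 47 of those in 137 KO cells and 44 in 145 WT cells. The melanoma-like values of Ptgs2 and Lta4h are therefore given with and without them. A UMI of any melanoma marker was found in 53 of the 137 KO and 78 of the 145 WT melanoma-like cells. Many cells of this class, also where it is taken as background, thus showed no such marker.

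The labelled genotype was checked in the Lyz2-expressing classes. Kcnj2 was at 10.2 CPM (8.17 to 12.7) in KO against 23.6 CPM (18.9 to 29.1) in WT macrophage-like cells, a log2 ratio of -1.20, and at 2.14 and 8.41 CPM in KO and WT monocyte-like cells. The deleted part of Kcnj2 was not given in the labels, so these 3' tags may lie outside it. The sort marker CD45 (Ptprc) was at 579 CPM in KO against 585 CPM in WT macrophage-like cells, but melanoma-like cells, which should lack it, also held 217 and 146 CPM. Lyz2, whose locus carries the Cre, was at 1465 CPM in KO against 8191 CPM in WT macrophage-like cells.

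Prostaglandins and leukotrienes are short-lived lipid mediators made from arachidonate, which phospholipases free from membranes. The cyclooxygenases, the steadily expressed Ptgs1 and the inducible Ptgs2, turn it into PGH2, from which the microsomal synthase Ptges makes PGE2. PGE2 acts through the cAMP-raising receptors EP2 (Ptger2) and EP4 (Ptger4), and prostacyclin through the IP receptor (Ptgir). In myeloid cells 5-lipoxygenase (Alox5), served by its partner FLAP (Alox5ap), makes LTA4, which the hydrolase Lta4h turns into LTB4 and the synthase Ltc4s into LTC4. PGE2 from tumours and their myeloid cells is known to alter dendritic cells, T cells and NK cells.

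The promoters of both cyclooxygenase genes and of the EP4 gene are shown because the class patterns of Ptgs2 and Ptger4 carry most of the results below and Ptgs1 is the other cyclooxygenase. The windows run from 200 bases before to 30 bases after the gene start, 5′ to 3′ on the gene's strand, from RefSeq on GRCm38.p6. Capitals mark matches on either strand to the GC box (GGGCGG), the C/EBP core (TTGCGCAA), the CRE core (TGACGT) and the E-box (CACGTG), the last of which overlaps the CRE core in Ptgs2.
Ptgs2, chr1:150099831-150100060, plus strand: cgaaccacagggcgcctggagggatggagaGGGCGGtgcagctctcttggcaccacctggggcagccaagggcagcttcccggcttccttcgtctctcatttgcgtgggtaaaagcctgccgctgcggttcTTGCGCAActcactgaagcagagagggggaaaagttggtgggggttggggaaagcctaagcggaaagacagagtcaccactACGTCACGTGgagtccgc
Ptgs1, chr2:36230226-36230455, plus strand: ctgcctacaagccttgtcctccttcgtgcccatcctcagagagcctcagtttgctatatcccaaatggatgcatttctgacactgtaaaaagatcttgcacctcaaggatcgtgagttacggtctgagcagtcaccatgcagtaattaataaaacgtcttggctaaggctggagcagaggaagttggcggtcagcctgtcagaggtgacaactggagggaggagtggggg
Ptger4, chr15:5244158-5244387, minus strand: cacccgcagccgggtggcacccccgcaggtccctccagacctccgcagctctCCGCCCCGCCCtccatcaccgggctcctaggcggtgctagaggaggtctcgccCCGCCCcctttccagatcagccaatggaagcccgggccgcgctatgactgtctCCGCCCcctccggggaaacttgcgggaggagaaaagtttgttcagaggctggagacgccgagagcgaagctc
Ptgs2 held the C/EBP core 69 bases before the start, a match found in 0.185% of the 27025 RefSeq promoters of 300 bases. The CRE core and E-box of Ptgs2 lay after the start, beginning at positions 13 and 17. The CRE core was found in 7.64% of those promoters, the E-box in 7.24% and the GC box in 35.9%. No searched motif lay in the Ptgs1 window, while the Ptger4 window held 4 GC boxes. Over the 300 bases from 250 before to 50 after the start, GC content was 59.3% for Ptgs2, 50.7% for Ptgs1 and 67.0% for Ptger4, beside a median of 52.7% over all promoters. Promoters of 9 of the 10 genes were found, and TATAAA and TTTAAA were in none of them. A match is a string of letters, and whether any match is a site in use was not tested.

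Ptgs2, the inducible cyclooxygenase (chr1:150100031-150108227, plus strand, GRCm38, as all gene positions here), was far above its background in macrophage-like cells and varied widely between classes. Its level was 2707 CPM in KO against 2208 CPM in WT macrophage-like cells (22201 and 8230 UMIs). Of these cells 85.7% in KO and 76.4% in WT held a UMI of Ptgs2. In CD8 T cell-like cells, taken as the level that free RNA in the droplets leaves in cells not known for Ptgs2, the values were 20.4 CPM in KO and 10.2 CPM in WT, with a UMI in 10.8% and 5.20% of cells. The median depths were 10421 and 8767 UMIs per KO and WT macrophage-like cell, and 5181 and 5477 UMIs per KO and WT CD8 T cell-like cell. With every cell thinned to 1000 UMIs the macrophage-like shares were 67.2% in KO and 58.4% in WT, against 1.35% and 0.881% in KO and WT CD8 T cell-like cells.

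**Figure D1:**
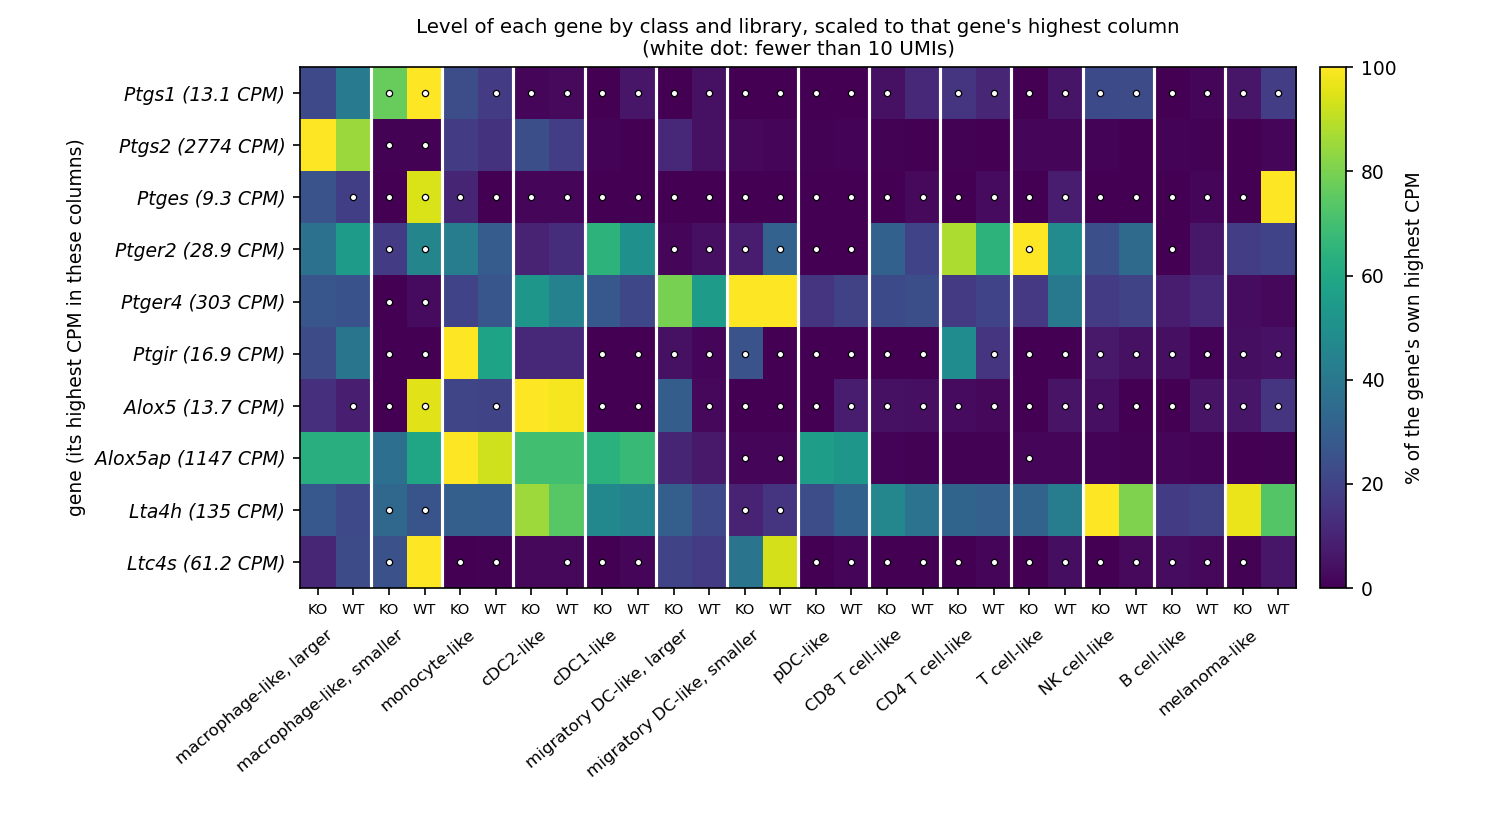
Level of each of the 10 genes by class, KO left of WT, as a percentage of that gene's highest CPM among the columns (given beside its name), with neutrophil-like and mast cell or basophil-like cells left out for their few cells, and with a white dot where a column has fewer than 10 UMIs. Among the classes drawn, Ptgs2 is brightest in the larger macrophage-like cluster, Ptger4 in migratory DC-like cells, Alox5ap across myeloid and dendritic classes, and Ptgs1, Ptges and Ptgir are mostly dotted.

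The macrophage-like class was made of a larger and a smaller cluster, and Ptgs2 separated them. The larger cluster (715 KO and 378 WT cells) had 2774 CPM in KO and 2352 CPM in WT, with a median of 18 and 15 UMIs of Ptgs2 per cell and up to 207 and 184 UMIs in 1 cell. The smaller cluster (48 KO and 63 WT cells), led by C1q genes, Ccl8 and Pf4, had 3 UMIs of Ptgs2 in each library, or 15.1 CPM in KO and 13.1 CPM in WT. In the smaller cluster 93.75% of KO and 95.2% of WT cells held no UMI of Ptgs2, though its cells were shallower, with a median of 3425 UMIs in KO and 2136 in WT. Its level was of the size seen in T, B and NK cell-like cells.

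**Figure D2:**
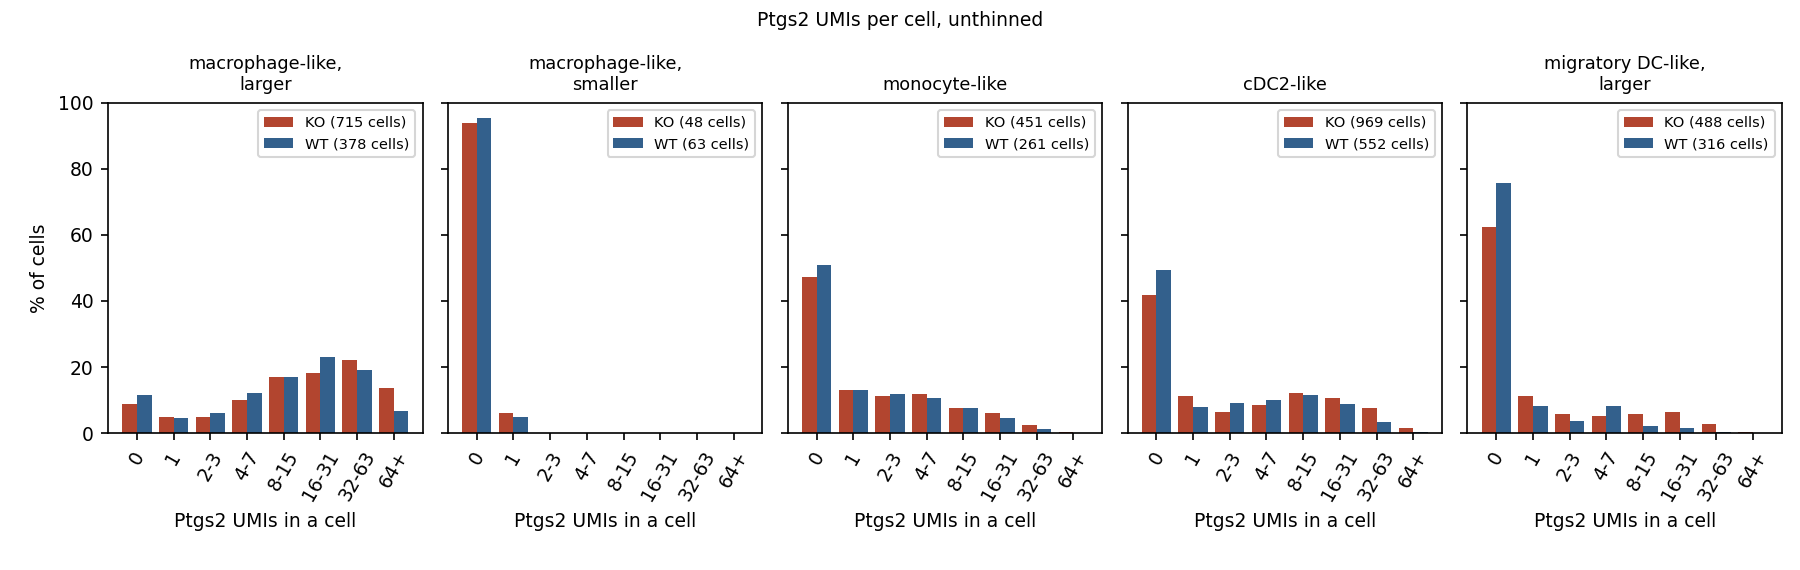
Share of cells (%) by the number of Ptgs2 UMIs in a cell, unthinned, in 2 macrophage-like clusters and 3 other sets, KO bars left of WT bars. Most cells of the larger macrophage-like cluster hold 8 or more UMIs (70.9% in KO, 65.6% in WT), while none of the smaller cluster does.

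Among the other classes, cDC2-like cells, conventional dendritic cells that present antigen to CD4 T cells, had 670.0 CPM of Ptgs2 in KO and 502 CPM in WT. Their Ptgs2 was uneven between cells. The median was 1 UMI in both libraries, and the 10% of cells with the most Ptgs2 held 56.0% of its UMIs in KO and 57.6% in WT. Monocyte-like cells had 481 CPM in KO and 407 CPM in WT. Migratory DC-like cells had 299 CPM in KO and 113 CPM in WT. They were named after markers, Ccr7 among them, of dendritic cells that can travel to lymph nodes, and their movement was not tested. Neutrophil-like cells had 3845 CPM in KO and 1870 CPM in WT, from 24 and 133 cells, and in KO 5 cells held 61.5% of those UMIs. The 6 KO and 8 WT mast cell or basophil-like cells had 5087 and 1738 CPM. By level, macrophage-like, cDC2-like, monocyte-like and migratory DC-like cells followed each other in this order in both libraries with intervals that did not overlap. Neutrophil-like and mast cell or basophil-like cells overlapped each other in both libraries. In cDC1-like cells Ptgs2 was at 22.6 CPM in KO against 8.98 CPM in WT, beside CD8 T cell-like values of 20.4 and 10.2 CPM, and pDC-like, CD4 T cell-like, NK cell-like and B cell-like cells had 15.4 to 22.9 CPM in KO and 8.44 to 28.5 CPM in WT.

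**Figure D3:**
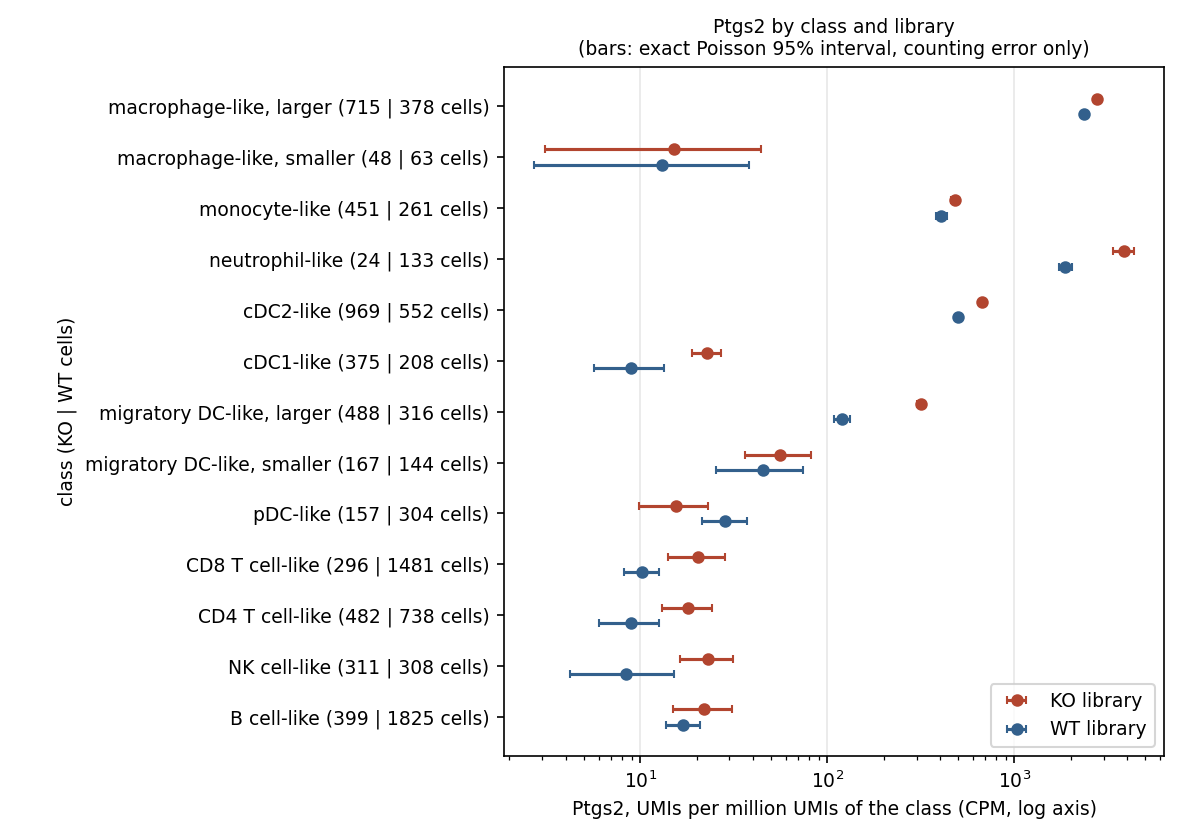
Ptgs2 in CPM on a log axis by class, KO points above WT points, with exact Poisson 95% intervals. The larger macrophage-like cluster and the neutrophil-like cells lie at or above 1870 CPM in both libraries, the smaller macrophage-like cluster lies among the lymphoid classes, and the KO point of the larger migratory DC-like cluster (317 CPM) lies well to the right of its WT point (119.8 CPM).

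Between genotypes, Ptgs2 was higher in KO than in WT, by unequal amounts, in each of the 4 classes in which it stood well above its background and which had at least 200 cells per library. The log2 ratio was 1.40 (1.25 to 1.56) in migratory DC-like cells, 0.42 (0.36 to 0.47) in cDC2-like cells, 0.29 (0.26 to 0.33) in macrophage-like cells and 0.24 (0.13 to 0.36) in monocyte-like cells. The monocyte-like ratio turned to -0.09 when the member and pathway genes were kept among those used for clustering. Ratios of similar size, on much lower levels, were found in other classes of at least 200 cells per library: 1.44 (0.45 to 2.56) in NK cell-like cells, 1.33 (0.68 to 2.04) in cDC1-like cells, 1.02 (0.32 to 1.73) in CD4 T cell-like cells and 1.002 (0.38 to 1.59) in CD8 T cell-like cells, the background class. Over the alternatives tried they ran between 0.66 and 2.14 in NK cell-like and between 0.62 and 1.15 in CD8 T cell-like cells. In CD4 T cell-like cells the range was 0.27 to 1.23, and in cDC1-like cells 0.02 to 1.39, so the cDC1-like ratio all but vanished under some settings. A ratio of this size was thus not particular to migratory DC-like cells, and the part of free RNA in any of these ratios was not tested. In B cell-like cells the ratio was 0.37 (-0.26 to 0.96).

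In migratory DC-like cells the Ptgs2 difference lay in the larger of their clusters. That cluster (488 KO and 316 WT cells) had 317 CPM in KO and 119.8 CPM in WT, with a UMI in 37.7% and 24.4% of cells, and 15.2% of KO against 4.11% of WT cells held at least 8 UMIs. The smaller cluster (167 KO and 144 WT cells) had 55.8 CPM in KO and 45.2 CPM in WT. Its cells were shallower, with a median of 2475 UMIs in KO and 2044 in WT, against 12513.5 and 9586 in the larger cluster. Thinned to 1000 UMIs per cell, 11.9% of KO and 7.43% of WT migratory DC-like cells held a UMI, with a log2 ratio of 0.93. Over the clusterings and filters tried the ratio ran between 0.74 and 1.70. The level depended more on the clustering: at Leiden resolution 0.5 the class had 85.1 CPM in KO and 50.9 CPM in WT, and after removal of the 6% of cells with the highest doublet scores 199 CPM in KO and 77.4 CPM in WT. Markers of other cells moved too: the 9 cDC2 markers summed to 786 CPM in KO and 526 CPM in WT (8 of 9 higher in KO), the 10 macrophage markers to 136 and 113 CPM (8 of 10), the 9 neutrophil markers to 218 and 123 CPM (4 of 9, with Retnlg at 0 in KO and Mmp9 at 0 in WT), and the 8 T cell markers to 193 and 658 CPM (0 of 8). Their part in the Ptgs2 difference was not tested.

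Ptgs1, the steadily expressed cyclooxygenase (chr2:36230426-36252272, plus strand), was scarce everywhere. Over all kept cells it had 68 UMIs in KO (1.21 CPM) and 79 UMIs in WT (1.45 CPM). Macrophage-like cells held 25 UMIs in KO (3.05 CPM) and 22 UMIs in WT (5.90 CPM), a log2 ratio of -0.95 (-1.84 to -0.06) from fewer than 50 UMIs. Neutrophil-like cells had 0 UMIs in KO and 4 UMIs in WT. No class with at least 200 cells per library held 50 UMIs of Ptgs1 over both libraries.

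Ptges, the microsomal PGE synthase (chr2:30889471-30929863, minus strand), was also scarce, at 26 UMIs in KO (0.464 CPM) and 53 UMIs in WT (0.976 CPM) over all kept cells. Macrophage-like cells held 19 UMIs in KO (2.32 CPM) and 8 UMIs in WT (2.15 CPM). Melanoma-like cells held 0 UMIs in KO and 35 UMIs in WT (9.28 CPM), and those 35 lay in 5 cells. In those 5 cells the 6 fibroblast markers summed to 16123 CPM and the 7 melanoma markers to 39.5 CPM. In the other 140 WT melanoma-like cells they summed to 10.6 and 13878 CPM, and 73 of those 140 cells held a UMI of a melanoma marker. The 5 cells thus carried many UMIs of fibroblast markers and few of the melanoma markers that named their class. 1 of the 5 had a barcode found in both libraries. Among the genes whose CPM over 25 class and library columns were most like that of Ptges were Col1a2 and Col1a1 (Pearson r of log2(CPM + 10) of 0.91 and 0.90), with Ptges itself at a mean of 0.657 CPM and the columns sharing libraries. A same-strand pseudogene, Gm13400, overlaps Ptges and held 6 UMIs in KO and 4 in WT.

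Ptgs2 in melanoma-like cells was likewise held by few cells. It was at 7.70 CPM in KO against 45.1 CPM in WT, and in WT 5 cells held 93.5% of its UMIs. Without the 5 cells of each library with the most Ptgs2 it was at 6.43 CPM in KO against 3.32 CPM in WT, and without the shared barcodes at 7.62 CPM in KO against 52.7 CPM in WT. The 3 WT cells with at least 10 UMIs had 19716 CPM of fibroblast markers.

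Ptger4, the EP4 receptor through which PGE2 raises cAMP (chr15:5206661-5244187, minus strand), was highest in migratory DC-like cells, followed by cDC2-like cells. Migratory DC-like cells had 244 CPM in KO and 179 CPM in WT (1688 and 662 UMIs), with a UMI in 73.3% and 59.3% of cells. In melanoma-like cells, the class taken as background, it was 23.4% in KO and 13.8% in WT, at median depths of 10158 and 4027 UMIs. As given above, many cells of that class held no UMI of a melanoma marker. cDC2-like cells had 160.0 CPM in KO and 133 CPM in WT. All other classes of both libraries were lower than migratory DC-like cells, and WT cDC2-like cells overlapped the WT T cell-like class at 122 CPM. Macrophage-like cells had 78.4 CPM in KO and 71.9 CPM in WT, CD8 T cell-like cells 68.5 and 72.2 CPM, and B cell-like cells 24.7 and 34.8 CPM. The smaller macrophage-like cluster held 0 UMIs in KO and 2 UMIs in WT, so both Ptgs2 and Ptger4 were at or near the floor of 3 UMIs there.

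By genotype, Ptger4 had a log2 ratio of 0.45 (0.32 to 0.58) in migratory DC-like cells, 0.27 (0.15 to 0.39) in cDC2-like cells, 0.12 (-0.08 to 0.34) in macrophage-like cells and -0.40 (-0.69 to -0.12) in monocyte-like cells, where KO had 61.1 and WT 80.8 CPM. None of these passed 1.5-fold. Within migratory DC-like cells the larger cluster had 240.1 CPM in KO and 167 CPM in WT and the smaller one 303 and 301 CPM. The cluster with little Ptgs2 thus had the higher Ptger4 CPM in both libraries, but its cells were much shallower. Per cell the order was the reverse. No UMI of Ptger4 was in 49.1% of KO and 54.9% of WT cells of the smaller cluster, against 19.1% and 34.2% in the larger. In the T cell-like class, below the cell minimum in KO with 122 cells, Ptger4 was at 50.5 CPM in KO against 122 CPM in WT. The coding gene Ttc33 overlaps Ptger4 on the other strand (1102 UMIs in KO and 1471 in WT), and no source used here says whether the counting used strand. Over the 25 columns the genes most like Ptger4 were Myo1g, Map3k14 and Gpr132 (r of 0.91, 0.86 and 0.85), and those most like Ptgs2 were Clec4n, Tgm2 and Csrnp1 (r of 0.97, 0.96 and 0.96), as descriptions over columns that share libraries.

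Ptger2, the EP2 receptor (chr14:44988195-45003820, plus strand), was spread thinly over lymphoid and myeloid cells, with 446 UMIs in KO and 402 in WT. CD4 T cell-like cells had 25.4 CPM in KO and 18.6 CPM in WT, cDC1-like cells 18.6 and 14.4 CPM, and macrophage-like cells 10.7 and 15.8 CPM, beside 5.27 and 5.83 CPM in KO and WT melanoma-like cells. pDC-like cells had 0 UMIs in both libraries. In macrophage-like cells the log2 ratio was -0.56 (-1.05 to -0.06), just inside 1.5-fold, and its direction turned to 0.19 with cells thinned to 1000 UMIs. Ptger2 in migratory DC-like cells was at 0.579 CPM in KO against 1.89 CPM in WT, in the class where Ptger4 was highest.

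Ptgir, the prostacyclin receptor (chr7:16906490-16910905, plus strand), was higher in monocyte-like cells than in any other class of at least 200 cells per library. There it had 71 UMIs in KO (16.9 CPM) and 21 UMIs in WT (9.81 CPM), with a UMI in 12.2% and 6.51% of cells and a log2 ratio of 0.78 (0.06 to 1.56). Macrophage-like cells had 31 UMIs in KO (3.78 CPM) and 23 UMIs in WT (6.17 CPM), a ratio of -0.71 (-1.53 to 0.14) whose interval spans no difference, and in WT the intervals of both classes overlapped. CD4 T cell-like cells had 20 UMIs in KO (8.18 CPM) and 9 UMIs in WT (2.58 CPM). CD8 T cell-like, cDC1-like and pDC-like cells held 0 UMIs in both libraries.

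Alox5ap, the FLAP protein that presents arachidonate to 5-lipoxygenase (chr5:149264767-149288153, plus strand), was found in most myeloid cells and dendritic cells other than migratory DC-like ones. Monocyte-like cells had 1147 CPM in KO and 1065 CPM in WT, with a UMI in 97.6% and 97.3% of cells, beside 10.2% of KO and 8.97% of WT melanoma-like cells. cDC2-like cells had 801 CPM in KO against 799.7 CPM in WT, macrophage-like cells 710.5 and 721 CPM, cDC1-like cells 734 and 779 CPM, and pDC-like cells 637 and 608 CPM. The log2 ratios of these 5 classes lay between -0.09 and 0.11. The smaller macrophage-like cluster was lower in KO, at 418 CPM against 678 CPM in WT, a ratio of -0.70 (-1.10 to -0.30).

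Migratory DC-like cells were the exception among dendritic cells for Alox5ap. They had 112 CPM in KO and 75.03 CPM in WT, with a UMI in 27.8% and 18.0% of cells, and a log2 ratio of 0.58 (0.38 to 0.78), just inside 1.5-fold. The direction of that ratio turned to -0.41 when the 6% of cells with the highest doublet scores were removed. The genes most like Alox5ap over the 25 columns were Gpr35, Cd300a and Gm46224 (r of 0.96, 0.96 and 0.95).

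Alox5 itself, 5-lipoxygenase (chr6:116410077-116461178, minus strand), had 261 UMIs in KO and 181 in WT, and cDC2-like cells held 72.4% and 47.5% of them. There it had 189 UMIs in KO (13.7 CPM) and 86 UMIs in WT (13.5 CPM), with a UMI in 8.26% and 7.61% of cells and a log2 ratio of 0.02 (-0.36 to 0.41). With cells thinned to 1000 UMIs the shares were 0.735% in KO and 1.11% in WT, from few UMIs, and the ratio was -0.59. The background class, CD8 T cell-like cells, had 0.601 CPM in KO and 0.586 CPM in WT. All 80 KO and 41 of 42 WT cDC2-like cells with an Alox5 UMI also held Alox5ap, as did 96.1% and 93.7% of the other KO and WT cDC2-like cells. Macrophage-like cells had 1.83 CPM in KO and 1.88 CPM in WT. The 6 KO and 8 WT mast cell or basophil-like cells held 2 and 5 UMIs of Alox5, the highest level in each library though from few cells. In migratory DC-like cells there were 26 UMIs in KO and 1 UMI in WT, with 76.9% of the KO UMIs in 5 cells.

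Lta4h, which makes LTB4 and also acts as an aminopeptidase (chr10:93453411-93484875, plus strand), was found in all classes except the 8 WT mast cell or basophil-like cells. NK cell-like cells had 135 CPM in KO and 109 CPM in WT, cDC2-like cells 116 and 100.2 CPM, CD8 T cell-like cells 62.5 and 51.6 CPM, and macrophage-like cells 37.4 and 30.1 CPM. Melanoma-like cells had 132 CPM in KO and 98.9 CPM in WT, and 112 and 94.7 CPM without the shared barcodes. No Lta4h ratio passed 1.5-fold in the 4 classes compared: they were 0.42 in migratory DC-like, 0.32 in macrophage-like, 0.21 in cDC2-like and 0.02 in monocyte-like cells. Thinned to 1000 UMIs per cell, the ratio turned to -0.01 in migratory DC-like and -0.08 in monocyte-like cells.

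Ltc4s, which joins glutathione to LTA4 (chr11:50236461-50238616, minus strand), was found mostly in macrophage-like cells (31.25% of its UMIs in KO, 34.2% in WT) and migratory DC-like cells (52.3% in KO, 30.4% in WT). Macrophage-like cells had 55 UMIs in KO (6.71 CPM) and 63 UMIs in WT (16.9 CPM), a log2 ratio of -1.33 (-1.88 to -0.79). Both of their clusters were lower in KO: the larger had 6.50 CPM in KO and 14.01 CPM in WT, and the smaller 15.1 and 61.2 CPM, from 3 and 14 UMIs. The share of macrophage-like cells with a UMI was 4.19% in KO and 4.99% in WT, and 5 cells held 45.5% and 44.4% of the UMIs, so few cells carried the gene in either library. The mast cell or basophil-like class held 0 UMIs of Ltc4s in both libraries, and its markers summed in macrophage-like cells to 4.88 CPM in KO and 2.15 CPM in WT. Migratory DC-like cells had 92 UMIs in KO (13.3 CPM) and 56 UMIs in WT (15.1 CPM). A non-coding gene, Gm26542, overlaps Ltc4s on the other strand (47 UMIs in KO and 62 in WT).

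Ltc4s UMIs lay in cells with and without a UMI of its upstream partner, Alox5ap. Of macrophage-like cells with a Ltc4s UMI, 31 of 32 in KO and 22 of 22 in WT also held Alox5ap. Among the other macrophage-like cells it was 92.3% in KO and 88.1% in WT, so most cells of that class held Alox5ap either way. Of migratory DC-like cells with a Ltc4s UMI, 5 of 52 in KO and 4 of 30 in WT held Alox5ap. Among the other cells of that class it was 29.4% in KO and 18.4% in WT. Monocyte-like cells held 1 UMI of Ltc4s in each library.

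The number of the 10 genes that differed by 1.5-fold or more between genotypes was set beside the same share over all genes, in the 9 classes with at least 200 cells per library. A gene was counted where a class had at least 50 of its UMIs over both libraries. In macrophage-like cells 7 members were measured, 0 were past 1.5-fold higher in KO and 2 past it lower (Ltc4s and Ptgir), where 7.34% of all 8865 genes measured were past it higher and 3.88% lower. In monocyte-like cells 6 were measured, 1 was higher (Ptgir) and 0 lower, where 6.67% of all genes were higher and 4.45% lower. In cDC2-like cells 6 were measured and 0 were past 1.5-fold, where 4.25% of all genes were higher and 3.89% lower. In migratory DC-like cells 5 were measured, 1 was higher (Ptgs2) and 0 lower, where 5.08% of all genes were higher and 8.7% lower. In cDC1-like cells 1 of 5 was higher (Ptgs2), where 5.7% of all genes were higher and 2.68% lower. In CD8 T cell-like cells 2 of 5 were higher (Ptgs2 and Ptger2), where 6.18% of all genes were higher and 5.59% lower. In CD4 T cell-like cells 1 of 4 was higher (Ptgs2), where 6.48% of all genes were higher and 4.12% lower. In NK cell-like cells 1 of 3 was higher (Ptgs2), where 3.32% of all genes were higher and 4.88% lower. In B cell-like cells 0 of 4 were past 1.5-fold, where 4.27% of all genes were higher and 12.2% lower. Ptger2 was at 9.01 CPM in KO against 5.86 CPM in WT CD8 T cell-like cells. The members' median log2 ratio was -0.02 in macrophage-like, 0.18 in monocyte-like, 0.11 in cDC2-like and 0.45 in migratory DC-like cells, and that of all genes 0.04, 0.02, -0.00 and -0.06 in the same classes.

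**Figure D4:**
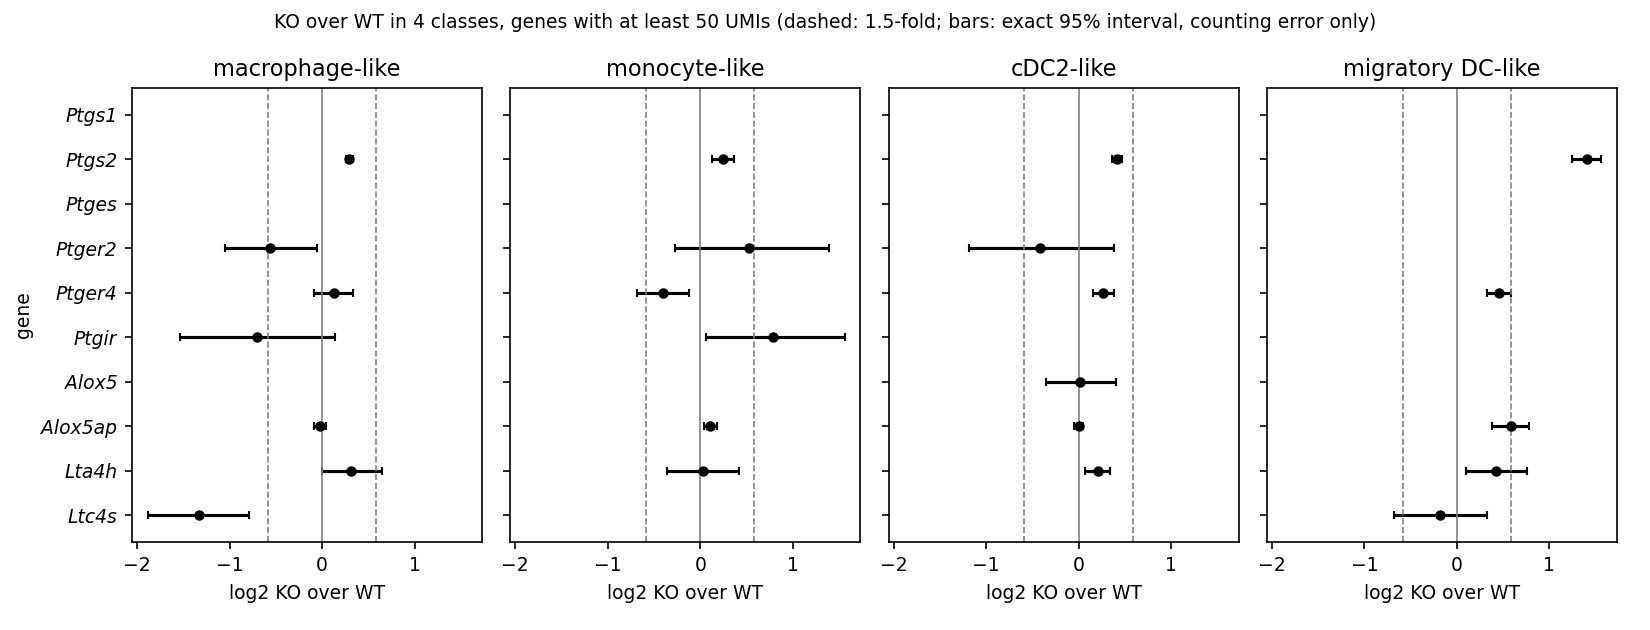
Log2 KO over WT of each member with at least 50 UMIs in 4 classes, with exact 95% intervals for counting error and dashed lines at 1.5-fold. Ptgs2 in migratory DC-like cells (1.40) and Ltc4s in macrophage-like cells (-1.33) lie farthest from 0, and Ptgir lies on opposite sides in monocyte-like (0.78) and macrophage-like cells (-0.71).

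The rest of the pathway was read through 8 lists with 63 genes, of which 62 were found. In macrophage-like cells 34 had at least 50 UMIs, and 1 was past 1.5-fold higher in KO and 2 lower. Of all genes 7.34% were past it higher there and 3.88% lower. Higher was Jun, an AP-1 subunit, at 1325 CPM in KO against 809 CPM in WT. Lower were Ptgr1 and Alox15. Ptgr1, a reductase that inactivates prostaglandins and LTB4, was at 10.6 CPM in KO against 24.1 CPM in WT. A UMI of Ptgr1 was in 6.29% of KO and 9.98% of WT cells, and 5 cells held 46.0% and 53.3% of its UMIs. Alox15, the 12/15-lipoxygenase of resident macrophages, had 0 UMIs in KO and 97 in WT (26.03 CPM). Alox15 was 71.1-fold lower in KO with 3 UMIs taken as the KO count. The exact interval of its log2 ratio had an upper end of -5.83, for counting error only. Of the 12 WT cells with a UMI, 5 held 83.5% of its UMIs.

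In monocyte-like cells 31 pathway genes were measured, 1 higher and 2 lower, where 6.67% of all genes were higher and 4.45% lower. Cebpd, a factor that acts on the Ptgs2 promoter, was past 1.5-fold higher at 111 CPM in KO against 67.3 CPM in WT. Hpgd, which breaks prostaglandins down, was lower at 29.2 CPM in KO against 47.6 CPM in WT, as was Hpgds, a prostaglandin D synthase, at 7.60 and 12.1 CPM. Hpgds had 32 UMIs in KO and 26 in WT, and the interval of its log2 ratio (-1.47 to 0.13) spans no difference. In WT 5 cells held 61.5% of the Hpgds and 42.2% of the Hpgd UMIs, and in KO 34.4% and 23.6%. In cDC2-like cells 33 were measured, 2 higher and 2 lower, where 4.25% of all genes were higher and 3.89% lower. Higher in KO were the lysosomal phospholipase Pla2g15 (4.07 CPM in KO, 1.89 CPM in WT) and the PGE synthase Ptges2 (5.15 and 2.99 CPM). The leukotriene dipeptidase Dpep2 (11.8 CPM in KO, 20.3 CPM in WT) and the prostaglandin D synthase Ptgds (2.54 and 4.41 CPM) were lower there. The Ptgds ratio rested on 35 KO and 28 WT UMIs, of which 5 cells held 17.1% and 53.6%. Macrophage-like (3.78 and 2.95 CPM) and B cell-like cells (4.81 and 4.89 CPM) held Ptgds in amounts of similar size. All were far below melanoma-like cells (1271 and 1400 CPM), and the part of free RNA in the cDC2-like values was not tested.

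In migratory DC-like cells 6 of 22 pathway genes were past 1.5-fold higher in KO and 2 lower, where 5.08% of all genes were higher and 8.7% lower. In CD4 T cell-like cells it was 5 of 17 higher and 0 lower, where 6.48% of all genes were higher and 4.12% lower. A count of this size was thus not particular to migratory DC-like cells. Ltb4r1, the high-affinity LTB4 receptor, was at 11.002 CPM in KO against 2.97 CPM in WT, and Cysltr1, a cysteinyl leukotriene receptor, at 13.6 and 8.64 CPM. Cebpb was at 32.9 CPM in KO against 17.5 CPM in WT and Fos at 683 and 412 CPM, both from the list of factors acting on Ptgs2. Also higher were Pla2g7, which cleaves platelet-activating factor (16.5 CPM in KO, 9.18 CPM in WT), and Abcc4, a PGE2 exporter (12.4 and 7.02 CPM). Lower in KO were the LTB4 hydroxylase Cyp4f18 (3.91 CPM in KO, 7.83 CPM in WT) and Nfatc1 (11.3 and 17.3 CPM). Ltb4r1 rested on 76 UMIs in KO and 11 in WT, and Cysltr1 on 94 and 32. In WT 5 cells held 54.5% of the Ltb4r1, 46.9% of the Cysltr1 and 64.7% of the Pla2g7 UMIs, and in KO 34.2%, 44.7% and 30.7%. For the other genes named, 5 cells held 12.9% to 36.6% in KO and 20.3% to 44.8% in WT. The median log2 ratio over the pathway genes measured was 0.19 in migratory DC-like, 0.02 in macrophage-like, 0.06 in monocyte-like and 0.05 in cDC2-like cells. The marker values given above for migratory DC-like cells stand beside this count too.

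For some pathway genes outside the members the class with the highest mean level over both libraries is given. Every gene has such a class, so being highest does not make a gene particular to it. Ltb4r1 was highest in macrophage-like cells (167 CPM in KO, 154 CPM in WT), and so was Pla2g4a, the cytosolic phospholipase that frees arachidonate (73.4 and 79.2 CPM). Cysltr1 was highest in cDC2-like cells (113 CPM in KO, 99.3 CPM in WT). Tbxas1, thromboxane synthase, was highest in cDC1-like cells (85.4 CPM in KO, 68.3 CPM in WT), beside 70.7 and 54.5 CPM in macrophage-like cells. Ptgds was highest in melanoma-like cells (1271 CPM in KO, 1400.5 CPM in WT).

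Over each library as a whole, Ptgs2 was at 681 CPM in KO against 312 CPM in WT, a log2 ratio of 1.12, and 38.0% of KO and 18.7% of WT cells held a UMI. Macrophage-like cells were 13.4% of KO and 4.94% of WT kept cells, and cDC2-like cells 17.0% and 6.18%. Makeup below means each class's share of the library's UMIs and not of its cells, so it also carries differences in depth per cell. Macrophage-like cells held 8200360 of 56033700 UMIs in KO and 3727039 of 54318365 in WT. With the KO makeup of classes and the WT level in each class the library would hold 526 CPM of Ptgs2. With the WT makeup and the KO levels it would hold 413 CPM. For Alox5ap the library ratio of 0.72 (508 CPM in KO, 308 CPM in WT) compared with 0.71 from makeup alone and 0.01 from levels alone. For Ptger4 the library ratio of 0.43 compared with 0.23 from makeup and 0.10 from levels. Classes are shares of sorted CD45+ cells from 1 pool per genotype.

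**Figure D5:**
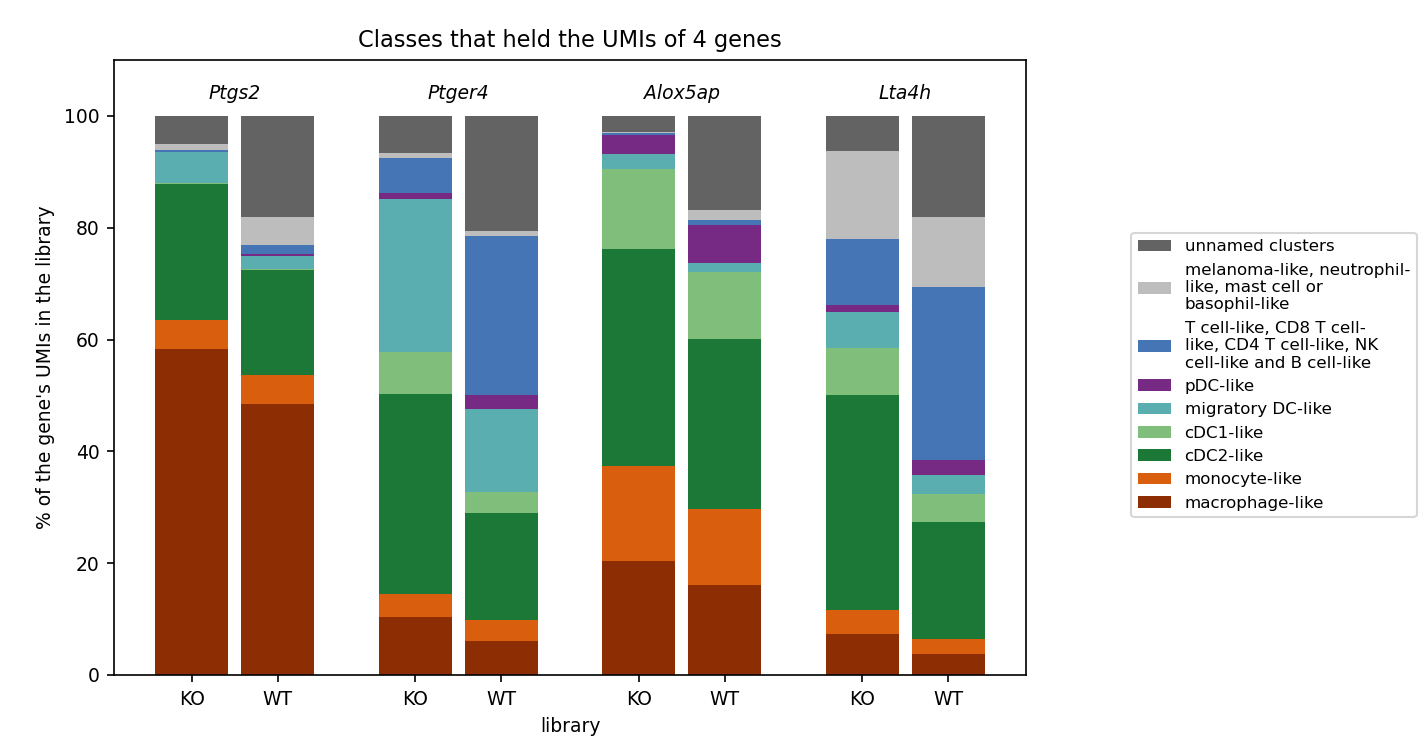
Share (%) of the UMIs of Ptgs2, Ptger4, Alox5ap and Lta4h held by each class, KO bars left of WT bars. Macrophage-like cells hold 58.2% of KO and 48.5% of WT Ptgs2 UMIs, and unnamed clusters 5.08% and 18.0%, while lymphocyte classes hold 6.19% of KO and 28.5% of WT Ptger4 UMIs.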

How the data were processed

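Count tables of 2 libraries were used, as deposited by the authors: whole-number UMI counts per gene and barcode, 10x Genomics 3' chemistry, on GRCm38. Per the submitters' processing notes the tools included bcl2fastq 2.20, Cell Ranger 3.1.0 and Seurat 4.0.1, while the matrix header names Cell Ranger 4.0.0; which of these Cell Ranger versions made the counts was not settled. The smallest deposited barcode total was 500 UMIs. From the counts, cells with under 200 genes or over 15% mitochondrial UMIs were removed. The rest were scaled to 10000 UMIs and log-transformed, and 2000 variable genes (members and pathway genes left out), 30 components, 15 neighbours and Leiden resolution 1 gave the clusters (scanpy 1.11.5, leidenalg 0.10.2). Scrublet called 1 KO and 0 WT cells as doublets and so did not work as a caller; 4 clusters stayed unnamed: 1 for a mean doublet score above 0.175, 1 led by cell-cycle genes, 1 of low depth and 1 with under 3 markers, whose mean doublet score was also above that limit (0.201). Limits for naming were set after the clusters were seen, so classes are rebuilt names. UMIs were summed per class and library (scipy 1.17.1). A gene is past the fold at 1.5-fold or more with at least 50 UMIs over both libraries, in classes of at least 200 cells per library, and for a zero 3 UMIs were the floor. The named genes were all 10 members, pathway genes past the fold or highest in a class, and for Ptgs2, Ptges, Ptger4 and Alox5ap the 3 genes of closest pattern, 1 of which is not reported here. The members and lists were chosen with earlier results of these data known. Alternatives covered filters, doublets, clustering, scaling (edgeR 4.0.16, TMM), thinning and thresholds. Scripts were tested on simulated counts.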

Additional observations from a re-analysis of the deposited data

Results flagged for a closer look

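Ptgir, the prostacyclin receptor, lay on opposite sides of 0 in neighbouring classes under the same comparison: its log2 ratio of KO over WT was 0.78 in monocyte-like cells (71 UMIs in KO, 21 in WT) and -0.71 in macrophage-like cells (31 UMIs in KO, 23 in WT). The difference between the classes was not tested, since each genotype had 1 library.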

How the results depend on the processing

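No paired analysis was possible because there was 1 library per genotype, and for the same reason no replicate could be left out. The number of members past 1.5-fold in macrophage-like cells, 2 as reported, was 1 at 10% mitochondrial UMIs, at Leiden resolution 1.5, at 2-fold and without the 5 cells with most UMIs, 0 after thinning, and 3 with member and pathway genes kept for clustering and at 20 or 1 UMIs. In monocyte-like cells, 1 as reported, it was 2 with no minimum beyond 1 UMI and without those 5 cells, and 0 at 2-fold and after thinning. In cDC2-like cells, 0 as reported, it was 1 after removal of the 6% of cells with the highest Scrublet scores. In migratory DC-like cells, 1 as reported, it was 2 at 10% mitochondrial UMIs, at resolution 1.5, with components centred per library, with TMM scaling, at 20 UMIs and without those 5 cells, and 4 with no minimum. Thinning leaves fewer genes at 50 UMIs; the other causes were not tested. TMM raised all migratory DC-like log2 ratios by 0.12. At resolution 0.5 and after removal by Scrublet score, macrophage and monocyte cells merged into a cluster that stayed unnamed, so those classes had no value there. No called ratio changed sign. Ltc4s in macrophage-like cells ran between -1.37 and -1.11, Ptgs2 between 0.24 and 0.41 in macrophage-like and between 0.34 and 0.58 in cDC2-like cells, and Ptger4 in migratory DC-like cells between 0.25 and 0.57. Leaving out shared barcodes, and using the larger cluster alone, were chosen after seeing the data. Low counts limit Ptgs1, Ptges, Ptgir, Alox5 and Ltc4s.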
